A study of Homo sapiens with 12 samples.

Results

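Transcript levels of 10 genes of mitosis were examined in SK-mel147 melanoma cells after knockdown of either gene of the histone variant H2A.Z. The genes encode the mitotic kinases AURKA, AURKB, PLK1, TTK and BUB1, the spindle checkpoint proteins BUB1B and MAD2L1, the spindle assembly factor TPX2, the kinetochore protein NDC80 and the cytokinesis protein ANLN. They were chosen by name, and all 10 were measured among 18417 genes, each by 1 probe set that carries a single gene symbol. The cells carried lentiviral short hairpin RNAs. H2AZ2, the gene of H2A.Z.2, was targeted by sh_37 and by sh_38, whereas H2AZ1, the gene of H2A.Z.1, was targeted by sh_83 and by sh_84, and a scrambled and a luciferase hairpin served as controls. Each of these 6 hairpins has 2 arrays, so 12 arrays and 4 per target were available. All groups share the cell line, an established human melanoma line, and lentiviral infection; the labels name no clone, and cells without a hairpin were not analysed here. Replicate 2 of sh_84 is called sh_84 in its title and sh_43 in another label, and the title was followed. Since no label ties replicates to separate infections or cultures, the spread between the 2 arrays of a hairpin may be technical. The p-values of single hairpins reflect only this array-to-array spread. Those of the fit that joins the hairpins of a target also reflect differences between these hairpins. The number of arrays limits the precision.

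Entry into mitosis is driven by cyclin-dependent kinase 1 and by the Aurora and Polo kinases, which mature the centrosomes and build the spindle. The spindle checkpoint holds back anaphase until every kinetochore is attached to microtubules, and cytokinesis then divides the cell. The genes of these proteins are transcribed late in the cell cycle. Their promoters often carry a short element near the gene start, the cell cycle homology region, through which the DREAM complex represses them in resting cells and the MYBL2 and FOXM1 complexes activate them in dividing cells. Proliferating melanoma cells transcribe them actively.

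The promoter stretches below show this element where it could be found, because the 10 genes are described here as a group that shares late cell cycle transcription. RefSeq promoter sequences (build GRCh38.p14, 250 bases before to 50 bases after each annotated gene start) were at hand for 7 of the 10 genes: ANLN, AURKB, BUB1, BUB1B, MAD2L1, NDC80 and PLK1. The 80 bases from 50 before to 30 after the gene start are printed 5′ to 3′ along the gene for the 6 genes in which TTTGAA or TTCGAA was present on either strand there; capitals mark these letters, and TTCAAA is TTTGAA read on the other strand.
ANLN, chr7:36389812-36389891, plus strand: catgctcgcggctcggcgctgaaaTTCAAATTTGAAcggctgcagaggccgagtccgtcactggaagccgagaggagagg
BUB1, chr2:110678034-110678113, minus strand: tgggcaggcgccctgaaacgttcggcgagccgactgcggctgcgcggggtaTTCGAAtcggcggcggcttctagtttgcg
BUB1B, chr15:40161019-40161098, plus strand: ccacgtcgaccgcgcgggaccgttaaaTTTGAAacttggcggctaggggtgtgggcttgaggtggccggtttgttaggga
MAD2L1, chr4:120066819-120066898, minus strand: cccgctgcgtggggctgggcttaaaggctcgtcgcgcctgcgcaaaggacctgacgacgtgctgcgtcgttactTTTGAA
NDC80, chr18:2571507-2571586, plus strand: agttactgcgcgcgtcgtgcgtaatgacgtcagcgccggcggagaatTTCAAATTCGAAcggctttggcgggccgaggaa
PLK1, chr16:23678839-23678918, plus strand: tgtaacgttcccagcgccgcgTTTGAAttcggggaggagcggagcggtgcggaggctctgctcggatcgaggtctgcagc

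TTTGAA or TTCGAA was found in this 80-base stretch for 6 of the 7 genes with a sequence and for 5.1% of the 27305 genes in the promoter table. TTCGAA is its own reverse complement, so both strands carry it at once, and no matches overlapped in these genes. In ANLN, TTTGAA occurred on each strand side by side, at positions -26 and -20 (the first base of the gene is 1 and the base before it is -1). In NDC80 TTTGAA on the minus strand, at -3, was followed by TTCGAA at 4. BUB1B had TTTGAA at -23, PLK1 at -29 and MAD2L1 at 25, and BUB1 had TTCGAA at 2. Over the whole 300 bases the share was 19.5% of all genes. CCAAT, the letters bound by NF-Y, which often acts with this element, was found on either strand within the 300 bases of AURKB, BUB1, MAD2L1 and PLK1, and of 39.7% of all genes. For AURKB, with 2 annotated starts in the table, neither TTTGAA nor TTCGAA was in the window. Its 80-base stretches, chr17:8210196-8210275 and chr17:8210220-8210299 on the minus strand, lie inside the gene span given below, which ends at 8210575. Both starts are thus inner ones, and the sequence before the outermost AURKB start was not read. The 6 of 7 genes above and the CCAAT of AURKB count AURKB by these inner starts. These matches are descriptions of letters, and no binding was measured here. On the same build AURKA lies at chr20:56369390-56392215, AURKB at chr17:8204731-8210575, TTK at chr6:80004649-80042527 and TPX2 at chr20:31739290-31801800.

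The targeted transcripts set the background for each hairpin. Relative to both controls, H2AZ2 stood at 46.1% with sh_37 (log2 difference -1.12, SE 0.08, limma adjusted p = 1.13e-05). The level left with sh_38 was 65.4% (log2 difference -0.61, SE 0.08, limma adjusted p = 0.00204), and sh_37 was lower than sh_38 when tested directly (-0.50, SE 0.09, limma adjusted p = 0.00763; 0.086 without sh_37 replicate 2). H2AZ1 was lower with sh_83 (-2.38, SE 0.09) and not measurably lower in the arrays labelled sh_84 (-0.12, SE 0.09, limma adjusted p = 0.859). Under the H2AZ2 hairpins H2AZ1 stood at -0.21 with sh_37 (limma adjusted p = 0.19) and -0.14 with sh_38 (limma adjusted p = 0.396). Its values with each of these hairpins lay below all controls, beside 17.2% and 12.8% of all genes. With sh_83 H2AZ2 stood at -0.07 (limma adjusted p = 0.788). Of 10 measured melanocyte lineage markers, SOX10, MCAM and MITF lay above the median probe set value of about 7 on the arrays, with means of 10.47, 10.82 and 8.27. PMEL (5.75), TYR (4.87), MLANA (5.09) and TYRP1 (4.81), which define pigmented cells, were below it; array background was not analysed here, so absence cannot be called.

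In the control cells all 10 genes varied little between the scrambled and luciferase hairpins. The differences, scrambled minus luciferase, ran from -0.09 (TPX2) to 0.18 (AURKB), none passed the limma test, and none of the 10 had an unadjusted p under 0.05. Over all 18417 genes limma called 0 genes here (0%), and 1384 had an unadjusted p under 0.05. The scrambled arrays lay wholly below luciferase for 2 of the 10 genes, beside 17.1% of all genes, and wholly above for 1, beside 13.4%. Within luciferase the replicates lay furthest apart for 4 genes. MAD2L1 read 9.36 in replicate 1 and 10.02 in replicate 2 of luciferase, against 9.91 and 9.72 with scrambled. TTK (9.51 and 9.92), NDC80 (9.23 and 9.57) and AURKA (10.87 and 11.17) showed replicate 1 low in the same way, and each of these replicate 1 values is the lowest of the 4 controls. Luciferase replicate 1 was also the lowest control, by less, for AURKB (10.60) and PLK1 (12.08). For BUB1, BUB1B, TPX2 and ANLN a scrambled array was lowest.

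**Figure D1:**
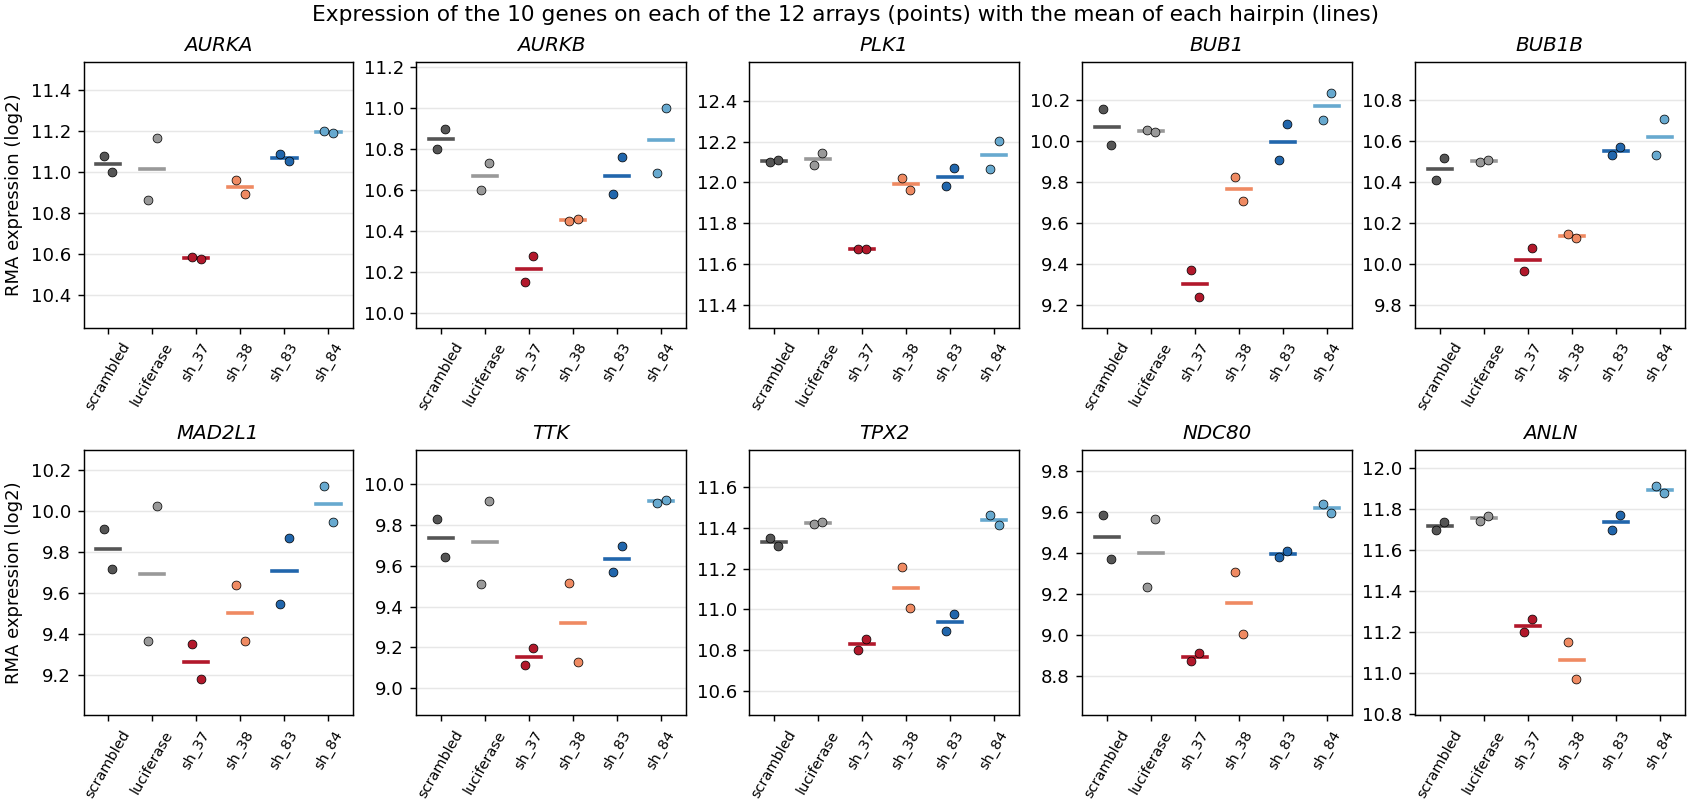
RMA expression (log2, vertical axis, the same span of 1.3 units in every panel) of the 10 genes on the 12 arrays; points are arrays, lines are the mean of the 2 arrays of a hairpin. The sh_37 arrays lie below all 4 controls in every panel, ANLN is lowest with sh_38, and TPX2 is also low with sh_83.

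With the H2AZ2 hairpins combined, ANLN, BUB1 and BUB1B fell and the other 7 genes were lower without passing the test. The fit held the 3 targets as groups with the hairpin as a random block; its differences ran from -0.27 (AURKA) to -0.59 (ANLN), with a median of -0.41 beside 0.03 for all genes. Of the 10 genes 3 fell (limma adjusted p under 0.05), beside 2.44% of all genes, and 0 rose, beside 0.863%. The 4 H2AZ2 arrays lay wholly below the 4 controls for 6 of the 10 genes, beside 7.46% of all genes, and wholly above for 0, beside 4.14%. In a culture, fewer cells in mitosis and less RNA per cell cannot be told apart by these values.

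The kinases came first in the order of mitotic events. AURKA, which matures centrosomes, read 10.59 and 10.58 on the sh_37 arrays and 10.96 and 10.89 on the sh_38 arrays, against 10.87 to 11.17 in the controls. Only the sh_37 arrays lay below every control. The difference of H2AZ2 hairpins from control was -0.27 (SE 0.11, limma adjusted p = 0.196). PLK1, the Polo kinase of mitotic entry and spindle building, was tight in the controls, from 12.08 to 12.14. It read 11.68 and 11.67 with sh_37 and 12.02 and 11.96 with sh_38, so all 4 H2AZ2 arrays lay below the controls (-0.28, SE 0.09, limma adjusted p = 0.133). AURKB, the kinase of the chromosomal passenger complex, which corrects faulty attachments, read from 10.15 to 10.46 on the 4 H2AZ2 arrays and from 10.60 to 10.90 on the controls. Its arrays did not overlap, and the difference of -0.42 (SE 0.11) just missed the threshold (limma adjusted p = 0.0529).

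Among the checkpoint genes the mean difference was largest for BUB1, the kinase that recruits checkpoint proteins to kinetochores. BUB1 read 9.37 and 9.24 with sh_37, 9.82 and 9.71 with sh_38, 10.16 and 9.98 with scrambled and 10.05 in both luciferase arrays. The H2AZ2 arrays were below all controls, with sh_37 below sh_38, and the gene fell by 0.52 on the log2 scale (SE 0.12, limma adjusted p = 0.0351). BUB1B, the checkpoint protein BUBR1 that inhibits the anaphase-promoting complex, read 9.97 and 10.08 with sh_37 and 10.15 and 10.13 with sh_38, against 10.41 to 10.51 in the controls. Here the hairpins lay close together, and the gene fell by 0.40 (SE 0.08, limma adjusted p = 0.0143). TTK, the kinase MPS1 that starts checkpoint signalling, differed by -0.49 (SE 0.13, limma adjusted p = 0.0562). Its sh_38 replicate 1, at 9.52, reached the lowest control, luciferase replicate 1, at 9.51, so the arrays overlapped. MAD2L1, the checkpoint protein that binds CDC20, differed by -0.37 (SE 0.17, limma adjusted p = 0.272), with sh_38 replicate 1 at 9.64 above luciferase replicate 1.

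Of the structural genes, ANLN changed most. ANLN, the anillin scaffold of the contractile ring, read 11.70, 11.74, 11.74 and 11.77 in the controls, 11.20 and 11.26 with sh_37 and 11.15 and 10.97 with sh_38. The groups lay far apart, and the gene fell by 0.59 (SE 0.08, limma adjusted p = 0.00482). TPX2, which activates AURKA and nucleates spindle microtubules, read 10.80 and 10.86 with sh_37, 11.21 and 11.01 with sh_38 and 11.31 to 11.43 in the controls. The arrays were apart, with a difference of -0.41 (SE 0.13, limma adjusted p = 0.112). NDC80, the microtubule-binding subunit of the outer kinetochore, differed by -0.42 (SE 0.12, limma adjusted p = 0.0772) and overlapped the controls through sh_38 replicate 1 (9.30) and luciferase replicate 1 (9.23).

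The calls of the joint fit differed in how often they passed when arrays, hairpins or settings were changed. Among the alternatives was the fit by hairpin, which also gave the values against a single control. ANLN passed in all 25 alternatives tried (adjusted p from 0.000314 to 0.0405). BUB1B passed in 23, failing without scrambled replicate 1 (limma adjusted p = 0.0704) and without hairpin sh_37 (0.0523), while BUB1 passed in 16 and failed without scrambled replicate 1 (0.16), without sh_37 replicate 1 or 2 (0.0759 and 0.0842), without luciferase replicate 1 or 2 (0.0754 and 0.0751) and with the replicate number as a block (0.0537). BUB1 also failed without hairpin sh_37 (-0.29, limma adjusted p = 0.172), without the H2AZ1 arrays (0.0609) and after quantile normalisation (0.0568). The count of 3 became 1 without scrambled replicate 1, where 66 of all genes were called, beside 609 with every array. BUB1B stood at -0.43 there, beside -0.40 with every array, so its call was lost while its difference was no smaller. The count became 5 without sh_38 replicate 1 (659 of all genes) and 5 without sh_83 replicate 1 (663), whose hairpin enters only the pooled variance. It was 2 without sh_37 replicate 1 or 2 (424 and 302), or without luciferase replicate 1 or 2 (329 and 235). All 10 differences stayed below 0 in every one of the 25 alternatives. Several of these alternatives could not move the differences. They changed only the fit, its block or variance prior, averaged probe sets, dropped the dimmest genes or left out H2AZ1 arrays.

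Taken by hairpin, the stronger H2AZ2 hairpin carried most of the calls. With sh_37, 9 of the 10 genes fell, all but MAD2L1, beside 7.19% of all genes called lower, and 0 rose, beside 5.72%. With sh_38, BUB1B and ANLN fell, 2 of 10, beside 3.33% of all genes, and 0 rose, beside 1.28%. The medians were -0.53 with sh_37 and -0.29 with sh_38, beside 0.01 and 0.03 for all genes. Both comparisons use the same 4 control arrays, so their values are set side by side here and were not counted as independent. These tests rest on the spread within hairpins, so hairpins of the same target may differ by more than their SEs show.

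**Figure D2:**
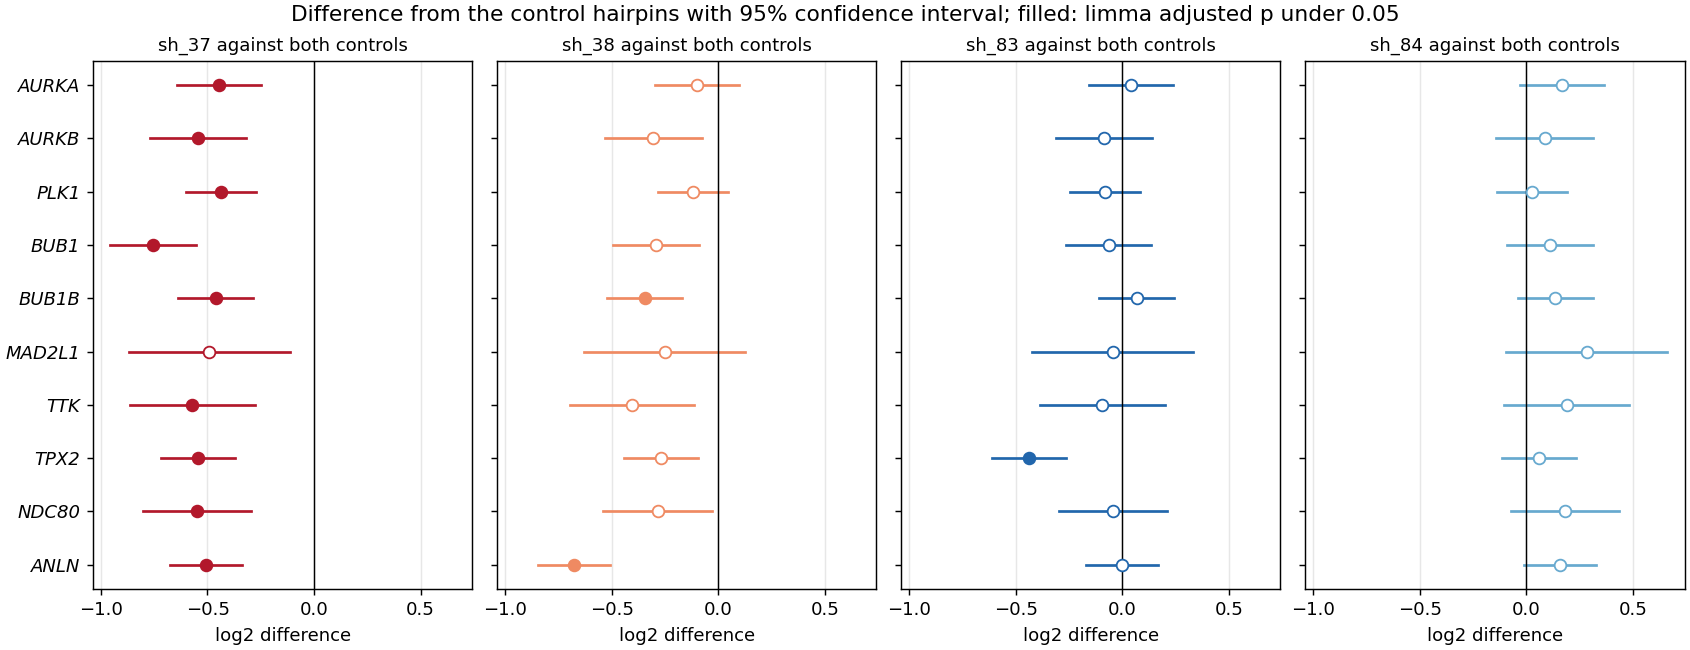
Log2 difference of each gene from the mean of both control hairpins (horizontal axis), with the 95% confidence interval of the limma fit, for sh_37, sh_38, sh_83 and the arrays labelled sh_84. Filled points passed an adjusted p under 0.05: 9 genes with sh_37, 2 with sh_38, TPX2 with sh_83 and none in the arrays labelled sh_84.

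With sh_37 the falls spanned 0.44 to 0.76 on the log2 scale, and genes of each role were among them. BUB1 fell most, by 0.76 (SE 0.09, limma adjusted p = 0.000383), to 59.2% of the control level. TTK fell by 0.57, NDC80 by 0.55, TPX2 by 0.55, AURKB by 0.54, ANLN by 0.51, BUB1B by 0.46, AURKA by 0.45 and PLK1 by 0.44, with SEs from 0.07 to 0.13. MAD2L1 stood at -0.49 (SE 0.17, limma adjusted p = 0.094), and passed at -0.66 without luciferase replicate 1 (adjusted p = 0.0128). The arrays of sh_37 lay below all 4 controls for all 10 genes, beside 17.2% of all genes, and above for 0, beside 13.9%. The median of the 10 genes was -0.50 without sh_37 replicate 1, -0.55 without its replicate 2 and -0.56 without luciferase replicate 1. It was -0.53 with every array. Fewer genes were called without either sh_37 array, among the 10 genes and over all genes.

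With sh_38 the sizes were uneven, and both arrays lay below all controls for 6 of 10 genes, beside 12.8% of all genes, and above for 0, beside 9.49%. ANLN fell by 0.68 (SE 0.08, limma adjusted p = 0.00122), to 62.6% of control, and BUB1B by 0.35 (SE 0.08, limma adjusted p = 0.0344), to 78.7%. TTK stood at -0.40 (limma adjusted p = 0.12), AURKB at -0.30, BUB1 at -0.29, NDC80 at -0.28, TPX2 at -0.27 and MAD2L1 at -0.25. PLK1 stood at -0.12 (95% confidence interval -0.28 to 0.05) and AURKA at -0.10 (-0.30 to 0.10), so a fall of the size seen with sh_37 lies outside both intervals. ANLN passed in all 20 alternatives and BUB1B in 9 of them. BUB1B did not pass without either sh_37 or sh_83 array (limma adjusted p = 0.057 and 0.0663), without sh_38 replicate 1 (0.0776) or 2 (0.257), or without luciferase replicate 1 (0.0591) or 2 (0.0811), and against luciferase or scrambled alone it gave 0.0584 and 0.107. In each of these the count of 2 became 1, except without sh_38 replicate 1, where TTK passed.

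Whether the H2AZ2 hairpins differ was tested directly, without the controls entering the difference. Only BUB1 passed, at -0.46, sh_37 minus sh_38 (SE 0.10, limma adjusted p = 0.0248), 1 of 10 genes, beside 2.2% of all genes called lower with sh_37 and 4.07% called higher. PLK1 stood at -0.32 (SE 0.09, limma adjusted p = 0.0554) and AURKA at -0.35 (SE 0.10, limma adjusted p = 0.0813). ANLN was the one gene with a difference in the other direction, 0.17 (95% confidence interval -0.03 to 0.37, limma adjusted p = 0.371), with both sh_37 arrays above both sh_38 arrays. BUB1B differed least, by -0.12 (95% confidence interval -0.32 to 0.09). The sh_37 arrays lay wholly below those of sh_38 for 8 of 10 genes, beside 24.9% of all genes, and above for 1, beside 21%. The median over the 10 genes was -0.25, beside -0.03 for all genes. The call for BUB1 was lost without sh_37 replicate 1 (limma adjusted p = 0.0889), sh_37 replicate 2 (0.195), sh_38 replicate 1 (0.119) or sh_38 replicate 2 (0.0671), and the count was 2 without either luciferase array, where AURKA passed.

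**Figure D3:**
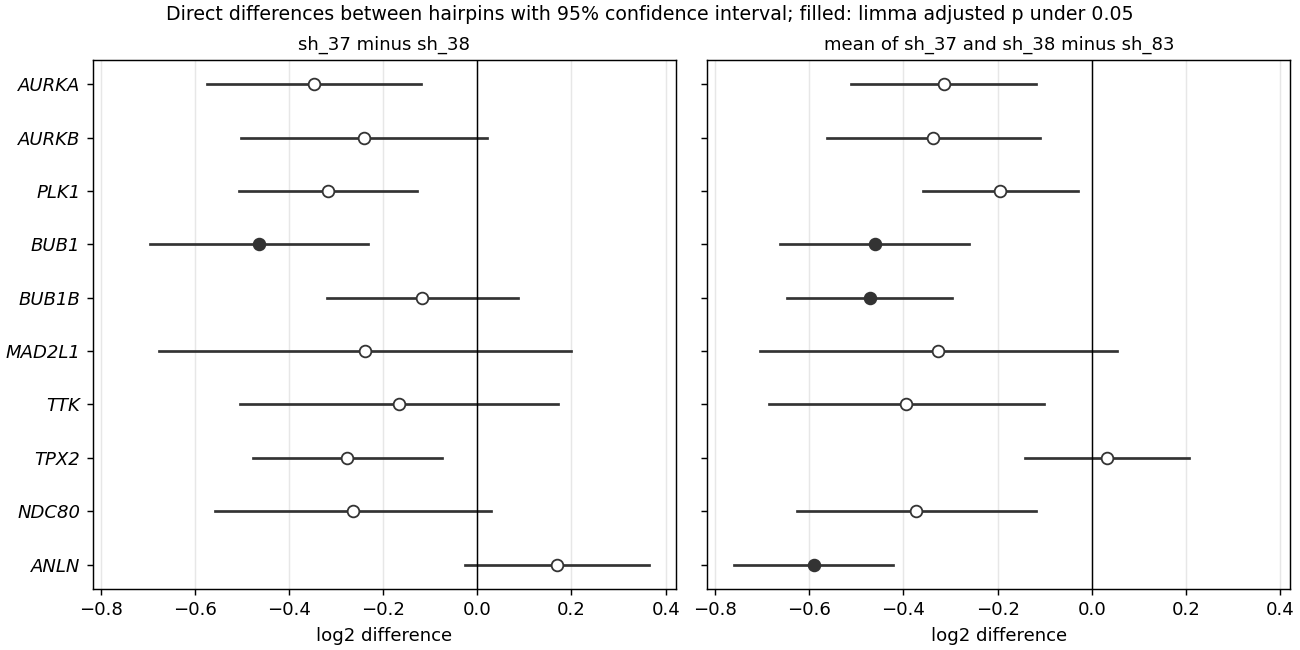
Direct log2 differences between hairpins (horizontal axis) with 95% confidence intervals: sh_37 minus sh_38 on the left and the mean of both H2AZ2 hairpins minus sh_83 on the right. Filled points passed an adjusted p under 0.05: BUB1 on the left, and BUB1, BUB1B and ANLN on the right, where TPX2 lies at 0.03.

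With sh_83, the H2AZ1 hairpin with a measured fall of its target, 9 of the 10 genes did not pass. Their differences from control ran from -0.09 (TTK) to 0.07 (BUB1B), and the median of the 10 genes was -0.05, beside 0.01 for all genes. ANLN stood at -0.0009 with a 95% confidence interval from -0.17 to 0.17, which leaves out falls of the size measured with sh_37 and sh_38. TPX2 was the exception. It read 10.90 and 10.98 with sh_83, below all 4 controls and close to the sh_37 arrays, and fell by 0.44 (SE 0.08, limma adjusted p = 0.0394), to 73.8% of control. This was 1 of 10 genes, beside 0.489% of all genes called lower; 0 rose, beside 0.152%. Both sh_83 arrays lay below all controls for 2 of 10 genes, beside 10.9% of all genes, and above for 1, beside 6.88%. The TPX2 difference stayed between -0.39 and -0.49 in the 20 alternatives, and it passed in 7 of them. It did not pass without any one of the arrays of scrambled, luciferase, sh_37, sh_83 or sh_84 (limma adjusted p from 0.0568 without scrambled replicate 2 to 0.517 without sh_83 replicate 1), nor with the arrays centred on their median (0.0673), against scrambled alone (0.172) or against luciferase alone (0.0533).

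In the arrays labelled sh_84, where H2AZ1 was near its control level, none of the 10 genes passed with limma and none had an unadjusted p under 0.05. All 10 values were above control, from 0.03 (PLK1) to 0.28 (MAD2L1), with a median of 0.15 beside 0.01 for all genes. Both arrays lay above all 4 controls for AURKA, BUB1B, NDC80 and ANLN, 4 of 10 genes, beside 4.76% of all genes, and below for 0, beside 9.53%. ANLN read 11.91 and 11.88 there (0.16, 95% confidence interval -0.01 to 0.33) and MAD2L1 10.12 and 9.95 (0.28, interval -0.10 to 0.66). TPX2 read 11.46 and 11.41, so the low TPX2 of sh_83 did not appear with the other hairpin labelled for H2AZ1. Over all genes 0.342% were called lower and 0.0109% higher in these arrays.

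Set directly against sh_83, the H2AZ2 hairpins gave lower levels of ANLN, BUB1B and BUB1. ANLN was lower by -0.59 (SE 0.08, limma adjusted p = 0.00207), BUB1B by -0.47 (SE 0.08, limma adjusted p = 0.00692) and BUB1 by -0.46 (SE 0.09, limma adjusted p = 0.015), 3 of 10 genes, beside 2.38% of all genes called lower; 0 were higher, beside 2.85%. The H2AZ2 arrays lay wholly below those of sh_83 for 7 of 10 genes, beside 11.1% of all genes, and above for 0, beside 11.8%. AURKA stood at -0.31, AURKB at -0.34, NDC80 at -0.37, TTK at -0.39, MAD2L1 at -0.33 and PLK1 at -0.19, none of which passed. TPX2 stood at 0.03 (95% confidence interval -0.14 to 0.21, limma adjusted p = 0.957). Calls were lost with some arrays left out, where calls over all genes fell too. Without sh_83 replicate 1 the calls of BUB1 (-0.55) and BUB1B (-0.49) were lost. Without its replicate 2 all 3 calls were lost, at -0.55 for ANLN, -0.45 for BUB1B and -0.37 for BUB1. Without sh_37 replicate 2 the call of BUB1 (-0.43) was lost.

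Other genes of mitosis were read from lists drawn up by function, and in each list some genes fell with H2AZ2 hairpins while most did not pass. All counts in this paragraph and in those on further lists and markers are from the joint fit of H2AZ2 against control unless a hairpin is named, and are to be read beside 2.44% of all genes called lower and 0.863% called higher; a list's median is set beside 0.03 for all genes. Of 17 further mitotic kinases and their regulators 5 fell and 0 rose (median -0.35). They included CDK1, the kinase of mitotic entry (-0.72, SE 0.12, limma adjusted p = 0.00722), and PKMYT1, which inhibits CDK1 (-0.66, SE 0.11). Of 5 genes of the chromosomal passenger complex and the shugoshins 2 fell (median -0.28): SGO1, which protects centromeric cohesion (-0.56), and CDCA8, a partner of AURKB (-0.44). Of 10 further checkpoint genes 2 fell (median -0.20), KNTC1 (-0.67) and ZWILCH (-0.64), subunits of the RZZ complex that brings MAD proteins to the kinetochore. Of 11 measured genes of the outer kinetochore 3 fell (median -0.44), among them SKA1 (-0.64) and DSN1 of the MIS12 complex (-0.62).

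Of 18 genes of the anaphase-promoting complex and separase 2 fell (median -0.12), and these were FBXO5, an inhibitor of the complex (-0.58), and ESPL1, which is separase itself (-0.45). Of 16 measured spindle assembly genes 5 fell (median -0.33), led by the motors KIF11 (-0.58) and KIF4A (-0.51). Of 15 measured cytokinesis genes 3 fell (median -0.29), among them CIT, a kinase of the midbody (-0.49), and PRC1, which bundles the central spindle (-0.46). With sh_37 the called numbers in these 7 lists were 10, 4, 3, 9, 6, 12 and 8 lower, and with sh_38 4, 1, 3, 1, 2, 3 and 2, in the order given, beside 7.19% and 3.33% of all genes called lower. Cytokinesis had 1 gene higher with sh_37, and no other of these lists had a gene called higher with either hairpin. In the checkpoint list the values of KNTC1 were -0.69 with sh_37 and -0.66 with sh_38, and those of ZWILCH -0.58 and -0.70. In sh_83 and in the arrays labelled sh_84 none of these 7 lists had a called gene, where all genes gave 0.489% and 0.342% called lower, so a count of 0 says little about the lists.

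**Figure D4:**
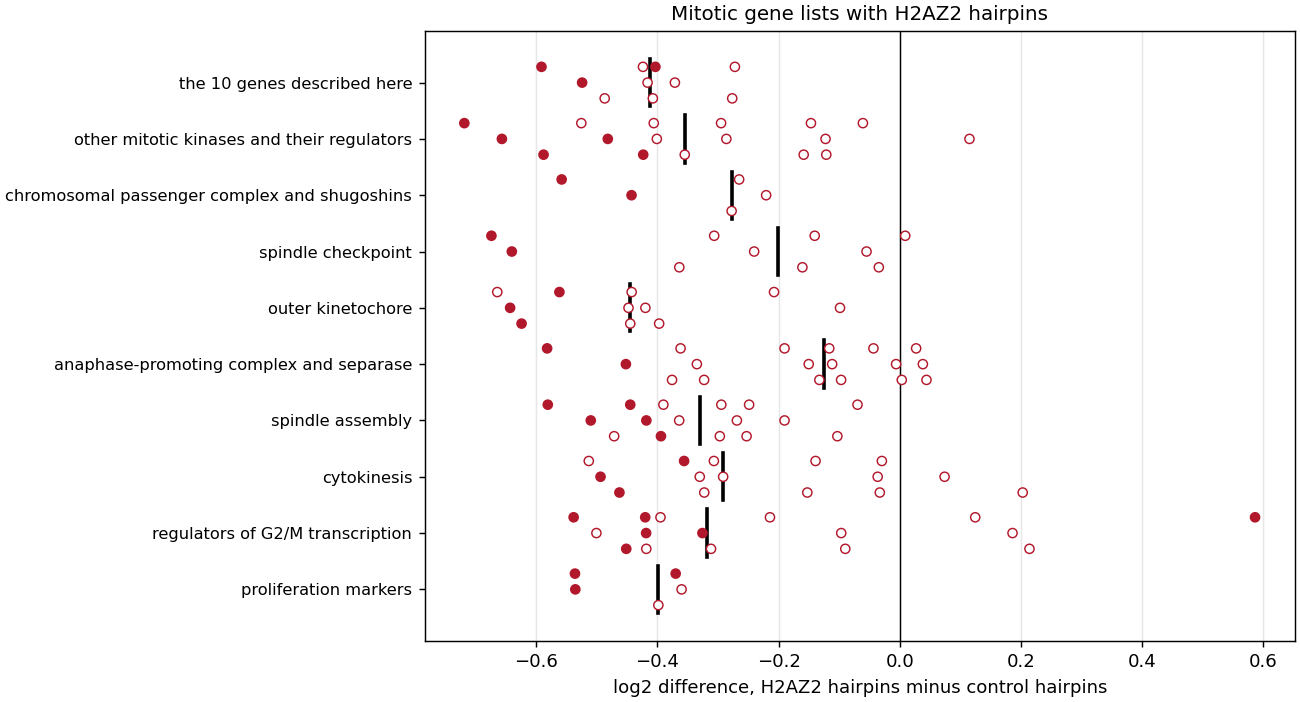
Log2 difference of H2AZ2 hairpins from control hairpins (horizontal axis) for the 10 genes and 9 further lists (rows, vertical scatter only to part the points); each point is a gene, filled where limma adjusted p was under 0.05, and the bar is the list median. List medians lie between -0.12 and -0.44, and the single filled point above 0 is CDKN1A.

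The regulators of late cell cycle transcription moved on both sides. Of 16 measured genes 5 fell and 1 rose (median -0.32), beside 2.44% and 0.863% of all genes. With sh_37 9 fell and 1 rose, beside 7.19% and 5.72%, and with sh_38 2 fell and 1 rose, beside 3.33% and 1.28%. RBL1, the pocket protein p107 of the DREAM complex, fell by 0.54 and LIN9, a subunit shared by the DREAM and MYBL2 complexes, by 0.45. CDKN1A, the p21 inhibitor of cyclin-dependent kinases, rose by 0.59 (SE 0.12, limma adjusted p = 0.0185), with 0.66 for sh_37 and 0.51 for sh_38. It stood at 0.05 with sh_83 and at -0.34 in the arrays labelled sh_84 (limma adjusted p = 0.192). FOXM1 (-0.42, limma adjusted p = 0.0496) and MYBL2 (-0.42, limma adjusted p = 0.0189), named here after their values were seen because they are the activators of this gene class, fell too. By hairpin FOXM1 stood at -0.60 with sh_37 and -0.24 with sh_38, and MYBL2 at -0.38 and -0.46. E2F4, a gene of the same list also named after its values were seen, stood at -0.78 with sh_37 and -0.01 with sh_38. It did not pass in the joint fit (limma adjusted p = 0.238). With sh_83 1 gene of this list fell, beside 0.489% of all genes. It was TFDP1, a dimer partner of E2F factors (-0.77, SE 0.09, limma adjusted p = 0.00382), named here after its value was seen.

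General markers of proliferating cells moved with these genes, and their part in the result was not tested. Of 5 markers (MKI67, TOP2A, PCNA, MCM2 and CCNA2) 3 fell (median -0.40), beside 2.44% of all genes, with MCM2 and TOP2A at -0.54 each. The sum of the 5 log2 levels was 54.48 to 54.97 on the control arrays, 52.20 to 52.26 with sh_37, 52.46 to 53.30 with sh_38, 54.39 to 54.71 with sh_83 and 55.20 to 55.33 in the arrays labelled sh_84. In these sums the H2AZ2 arrays lay below the controls and the arrays labelled sh_84 above them. TOP2A, a topoisomerase of mitotic chromosomes, stood at -0.45 under sh_37 and at -0.62 under sh_38.

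The same arrays also measured markers of non-melanocytic cells. The summed log2 level of 7 fibroblast markers was 44.81 to 46.30 on the controls, 48.03 to 48.46 with sh_37, 46.64 to 47.72 with sh_38, 46.52 with sh_83 and 44.48 to 45.08 in the arrays labelled sh_84. The sums of sh_37, sh_38 and sh_83 lay above those of all controls. None of the 7 was called in the joint fit, while 2 were called higher with sh_37 (5.72% of all genes), 1 higher with sh_38 (1.28%) and 1 lower in the arrays labelled sh_84 (0.342%). LUM averaged 10.08 with sh_37 against 8.43 with scrambled and 9.20 with luciferase, and COL1A1 8.46 against 7.77 in each control. DCN, a defining fibroblast gene, lay between 3.33 and 3.73 in every hairpin. Sums of 6 keratinocyte (36.58 to 39.24), 5 leukocyte (33.61 to 35.64), 5 endothelial (28.63 to 30.45) and 10 melanocyte lineage markers (66.17 to 68.69) overlapped between control and H2AZ2 arrays except for leukocytes with sh_37, whose 33.61 to 33.92 lay below the controls (33.95 to 35.01). CD68 averaged 10.87 there, against 11.45 in each control and 11.73 with sh_38. The part of these markers in the values above was not tested.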

How the data were processed

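RNA of 12 SK-mel147 samples was hybridised to Affymetrix arrays. The deposited values are log2 expression per probe set, made by the authors with RMA, per the submitters' processing notes, and its version was not given in the sources used here. Of 33297 probe sets, 19460 carried 1 gene symbol in GEO's platform annotation, and symbols were updated through Entrez IDs (19429 matched). The brightest such probe set by mean over all arrays was kept per gene, giving 18417 genes. No further normalization was applied.

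Tests used limma 3.58.1 in R 4.3.3, two-sided, with eBayes; p-values were adjusted by Benjamini-Hochberg across the 18417 genes, at 0.05. H2AZ2 against control held 3 targets with the hairpin as random block (duplicateCorrelation, consensus correlation 0.157). Single hairpins came from a fit of 6 groups (6 residual degrees of freedom). The named genes are the 10 genes, both targets and, per list, the 2 largest called falls and rises; exceptions are marked, and MKI67, PCNA, CCNA2 and cell type markers are named as lists. Of 165 list entries 158 were measured. The members and lists were chosen with earlier results of these data known. The fits were tested on simulated data. Alternatives changed the block, the control hairpin, the arrays or hairpins used, the variance prior and the scaling (centring, quantile), averaged probe sets, or dropped the dimmest 25% of genes. Figures were drawn with matplotlib 3.10.9.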

Additional observations from a re-analysis of the deposited data

Results flagged for a closer look

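Levels of the 10 genes and both targets were screened for single arrays far from the other 3 of a target, in 36 groups of 4 arrays; chance flags about 1 group in 20. BUB1B had its lowest control in scrambled replicate 1, with a gap of 0.849 of the control range (0.09 of 0.106 on the log2 scale). H2AZ1 had its lowest value under H2AZ2 hairpins in sh_37 replicate 1, with a gap of 0.874 of the range. The low luciferase replicate 1 of MAD2L1, TTK, NDC80 and AURKA did not reach Dixon's critical value.

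Differences between groups that passed a direct limma test were BUB1 (-0.46) and H2AZ2 (-0.50) for sh_37 minus sh_38, and BUB1 (-0.46), BUB1B (-0.47), ANLN (-0.59), H2AZ2 (-0.79) and H2AZ1 (2.20) for the mean of the H2AZ2 hairpins minus sh_83. The values for H2AZ1 and H2AZ2 are those of the targeted transcripts.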

How the results depend on the processing

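The number of the 10 genes called was 3 for H2AZ2 against control (609 of all genes). It was 6 without the hairpin block (957), 5 with a trended robust prior (774), 1 without hairpin sh_37 (447) and 9 without hairpin sh_38 (1681). In the fit by hairpin it was 9 (2087). That fit also gave the counts for a single control, 7 against scrambled alone (1297) and 5 against luciferase alone (1309). For sh_38 against control (2 called, 848 of all genes) it was 1 after quantile normalisation (1016) and 4 with the trended prior (1265). It was 1 against scrambled alone (468) and 1 against luciferase alone (628). For sh_83 (1 called, 118 of all genes) it was 0 with centred arrays (74), against scrambled alone (50) and against luciferase alone (81). For sh_37 against sh_38 (1 called, 1155 of all genes) it was 2 with the replicate block (1385) and 2 with centred arrays (1130). Without the dimmest 25% of genes it was 2 (1324 of the genes kept). After quantile normalisation it was 3 (1503) and with the trended prior 4 (1518). For H2AZ2 hairpins against sh_83 (3 called, 964 of all genes) it was 5 after quantile normalisation (1332) and 7 with the trended prior (1397). The causes of these shifts were not tested.

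With each array left out in turn the count ran from 1 to 5 for H2AZ2 against control, 4 to 10 for sh_37, 1 to 2 for sh_38, 0 to 1 for sh_83, 0 to 2 for sh_37 against sh_38 and 0 to 4 for H2AZ2 hairpins against sh_83; it stayed 0 for sh_84 and for scrambled against luciferase. Leaving out 1 array of a hairpin leaves a lone array, assumed to vary like the others. With each array left out, the joint fit called from 66 to 847 of all genes, beside 609 with every array. Calls over all genes thus moved as well. No called value changed sign among the 10 genes, both targets and the genes named from the lists by rule. Alternatives that changed only the fit, or arrays outside a comparison, could not change a sign. Genes named outside that rule, among them FOXM1, MYBL2, E2F4 and TFDP1, were not followed through the alternatives.

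Replicate numbers were not taken to pair the arrays, since not every pair of hairpins met the limit of 0.1: deviations of same-numbered arrays correlated over genes at -0.469 to 0.677 in 15 pairs of hairpins (median 0.145), and 9 pairs exceeded 0.1. Some shared variation by number is therefore possible. With the replicate block the counts were 3 for H2AZ2 against control, where AURKB replaced BUB1, 9 for sh_37, 2 for sh_38, 1 for sh_83, 0 for sh_84 and 4 for H2AZ2 hairpins against sh_83. Over all genes the block gave 445, 2723, 1110, 169, 113 and 1188 calls, in the same order. Signal over background is unknown for these values.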
